A study of Mus musculus with 12 samples.

Results

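The MAP kinase cascade kinases and Ras GTPases described here are 41 genes, chosen by gene symbol from the 28842 genes of the deposited expression table, and all 41 were found. They hold the ERK arm (13 genes), the JNK arm (11 genes), the p38 arm (7 genes), the ERK5 arm (4 genes), 4 kinases shared between arms and 2 atypical MAP kinases. Messenger RNA was sequenced from prefrontal cortex of wild-type male C57BL/6J mice, an inbred laboratory strain, with 6 libraries per group. Mice of the cocaine group were injected with 15 mg/kg cocaine in adolescence, between postnatal days 28 and 42, and mice of the saline group with saline over the same days. Both groups then shared the adult treatment: a pre-test on postnatal day 75, 1 mg/kg cocaine on days 76 and 77 before training for conditioned place preference, and the test on day 78, with tissue taken 30 to 60 min later. Conditioned place preference is a behavioural test in which an animal chooses between a drug-paired chamber and another. The saline group is thus cocaine-experienced as adults, and the contrast is of the adolescent exposure alone. Whether the libraries come from different mice is not in the labels, and p-values therefore reflect library-to-library spread, which may be technical.

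MAP kinase cascades are relays in which a MAP kinase kinase kinase (MAP3K) phosphorylates a MAP kinase kinase (MAP2K), which phosphorylates a MAP kinase (MAPK). In the ERK arm the relay is started by Ras, a membrane GTPase that binds Raf kinases once it is loaded with GTP, while the JNK and p38 arms answer mainly to stress and cytokines. In cortical neurons ERK is activated by calcium entry and dopamine receptors and drives transcription of activity-dependent genes. These kinases are switched by phosphorylation, which RNA sequencing does not measure, so the values here are transcript levels and not kinase activity.

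The ERK, JNK and p38 arms can be told apart in the transcripts themselves at the site where the MAP2K acts. The MAP kinases of the ERK, ERK5, JNK and p38 arms carry a threonine and a tyrosine on the activation loop with 1 residue between them. That middle residue is glutamate in ERK and ERK5, proline in JNK and glycine in p38. The stretch of 51 coding bases around it is shown for the 8 members among these MAP kinases, with the 3 codons of the motif in capitals. It is shown because the middle residue differs between the ERK, JNK and p38 arms compared below. The atypical Mapk4 and Mapk6 lack the motif and are not shown. The sequences were read from GENCODE M21 transcripts (GRCm38), 5′ to 3′ on the coding strand.
Mapk3: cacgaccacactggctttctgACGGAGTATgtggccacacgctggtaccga
Mapk7: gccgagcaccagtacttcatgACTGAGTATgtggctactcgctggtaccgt
Mapk10: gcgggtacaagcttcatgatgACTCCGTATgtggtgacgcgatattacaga
Mapk8: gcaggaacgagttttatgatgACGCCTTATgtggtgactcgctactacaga
Mapk9: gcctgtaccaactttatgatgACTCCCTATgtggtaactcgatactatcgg
Mapk14: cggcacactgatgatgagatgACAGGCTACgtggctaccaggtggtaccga
Mapk11: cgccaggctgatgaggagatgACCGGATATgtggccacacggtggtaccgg
Mapk12: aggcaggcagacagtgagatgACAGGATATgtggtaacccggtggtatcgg
Within the JNK genes 38 to 41 of the 51 bases were identical between pairs, and within the p38 genes 37 to 40. Mapk3 and Mapk7 shared 37 of the 51 bases. Mapk3 shared 24 to 27 bases with the JNK genes and 25 to 32 with the p38 genes. The motif encodes the same residues within an arm, yet no pair among the 8 genes wrote it with the same codons.

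Depth was alike in the groups, at 16.9 to 18.8 M reads per cocaine library and 16.7 to 19.9 M per saline library. Mitochondrial transcripts took 3.30 to 5.43% of reads in cocaine libraries and 3.24 to 5.27% in saline libraries. The labels also name a mesenchymal stem cell line, C3H 10T1/2, which does not match the tissue: 5 of 7 mesenchymal markers averaged under 1 FPKM, whereas the 8 markers of excitatory cortical neurons summed to 738 to 894 FPKM in cocaine libraries and 711 to 943 FPKM in saline libraries. Markers of myelinating oligodendrocytes varied most among the abundant cell types, summing to 539 to 2190 FPKM in cocaine libraries and 356 to 2641 FPKM in saline libraries. In a bulk sample fewer cells of a type and less RNA per cell cannot be told apart. One library stood apart by its markers. The 4 choroid plexus markers summed to 0.271 to 1.64 FPKM in cocaine libraries and had a median of 0.954 FPKM in saline libraries. In saline 5 they reached 539 FPKM, of which Ttr alone held 536 FPKM. Kl, Folr1 and Clic6 were also highest there, but only at 0.708, 0.719 and 2.24 FPKM.

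The 2 most abundant members, Map2k1 and Mapk3, both belong to the ERK arm. FPKM, a read count scaled by gene length and by the library's total, was computed from the deposited values and lengths, and levels are compared between genes only on that scale. Of the 41 genes 9 averaged over 20 FPKM, 19 lay between 5 and 20, 11 between 1 and 5, and 2 below 1, and 26 lay above 6.64 FPKM, the median of the 13016 genes tested. Map2k1, which encodes MEK1, the kinase of ERK, was the most abundant member at 102 FPKM averaged over all libraries. Mapk3, which encodes ERK1, followed at 99.6 FPKM. Map3k10, a mixed-lineage kinase that activates the JNK arm, came after them at 51.4 FPKM, and Map2k4, a MAP2K of JNK that can also act on p38, was next at 50.1 FPKM. At the low end stood Map3k1, a MAP3K of the JNK arm, at 0.800 FPKM and Mapkapk3, a kinase activated by p38, at 0.396 FPKM. Both fell below the mean of 1 FPKM required for testing, so 39 of the 41 genes were tested.

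**Figure D1:**
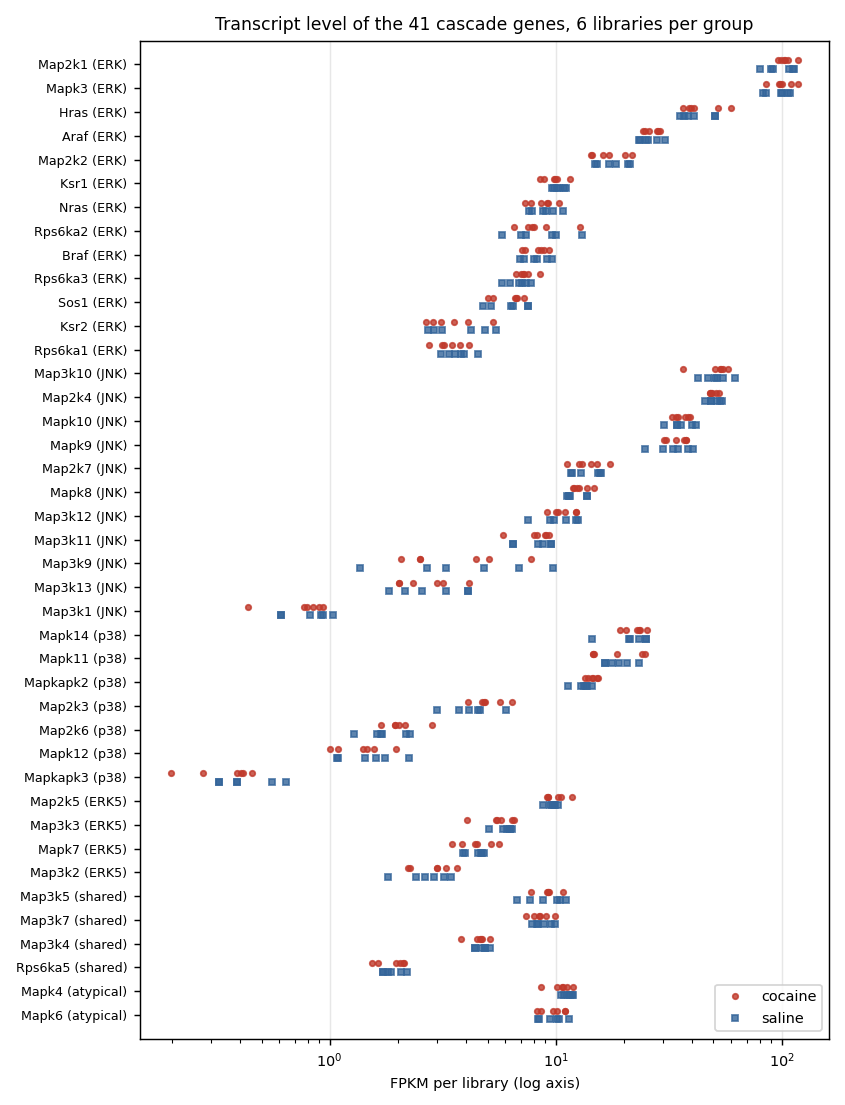
FPKM of the 41 cascade genes on a log axis, grouped by arm, with 1 point per library (cocaine circles above, saline squares beneath them). Levels span from under 1 FPKM for Mapkapk3 and Map3k1 to about 102 FPKM for Map2k1, and the points of the groups overlap in every gene.

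Summed over each tier, the arms were unequal, and their order changed with the tier. At the MAP3K tier the JNK arm stood above the ERK arm in every library: its 6 genes gave 77.9 ± 11.3 FPKM in cocaine libraries and 78.9 ± 10.4 FPKM in saline libraries (SD, n = 6 each). Araf and Braf, the Raf kinases of the ERK arm, gave 35.0 ± 1.93 FPKM in cocaine libraries and 34.3 ± 1.80 FPKM in saline libraries. Map3k10 alone held 51.4 of the mean 78.4 FPKM of the JNK sum over all libraries, so the order at this tier rests on that gene. Of its exon bases 14.8% lie in exons of a gene on the opposite strand, and the strand setting of the counter is not stated. At the MAP2K tier the ERK arm led. The ERK kinases Map2k1 and Map2k2 together gave 122 ± 5.52 FPKM in cocaine libraries and 118 ± 11.3 FPKM in saline libraries (SD, n = 6 each). The JNK kinases Map2k4 and Map2k7 gave 63.7 ± 1.86 FPKM in cocaine libraries and 64.4 ± 2.61 FPKM in saline libraries. The p38 kinases Map2k3 and Map2k6 gave 7.20 ± 0.564 FPKM in cocaine libraries and 6.14 ± 0.888 FPKM in saline libraries. Across the 12 libraries the ERK sum was 13.1 to 24.2 times the p38 sum, with a median of 18.3, and 1.5 to 2.07 times the JNK sum. At the MAPK tier the gap was smaller. Mapk3 alone stood at 102 ± 11.1 FPKM in cocaine libraries and 97.4 ± 11 FPKM in saline libraries. The 3 JNK genes summed to 83.7 ± 6.58 FPKM in cocaine libraries and 82.0 ± 11 FPKM in saline libraries, and the 3 p38 genes to 42.6 ± 3.08 FPKM in cocaine libraries and 42.3 ± 3.93 FPKM in saline libraries. Counted this way, the distance of the p38 arm from the other arms was wider at the MAP2K tier than at the MAPK tier. Map2k4, which can also act on p38, was counted in the JNK arm alone, at 50.1 FPKM over all libraries. The width of the p38 gap at the MAP2K tier depends on that assignment. Sums cover the member genes only, other genes of these families are not analysed here, and no test was run on the sums.

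**Figure D2:**
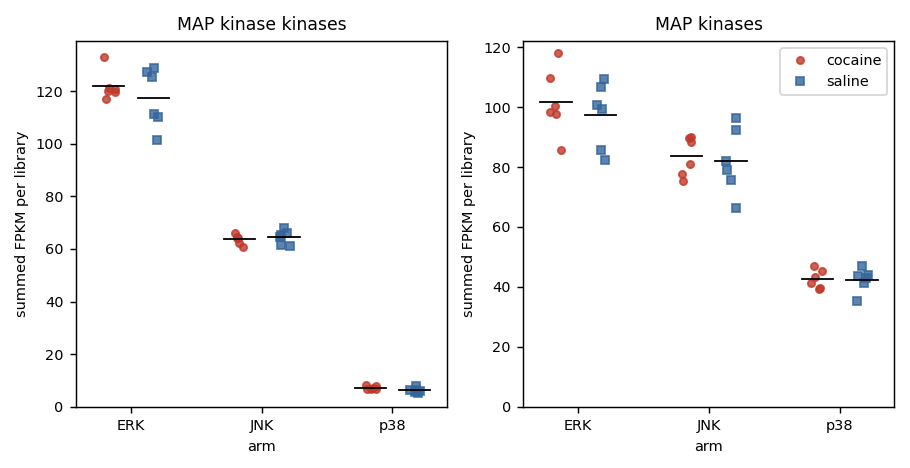
Summed FPKM of the MAP kinase kinases (left) and MAP kinases (right) of the ERK, JNK and p38 arms, 1 point per library and a line at the group mean, cocaine left of saline. The p38 kinase kinases Map2k3 and Map2k6 lie between 5.26 and 8.09 FPKM in all 12 libraries, far below the ERK and JNK sums. Map2k4 is counted in the JNK sum alone. The p38 MAP kinases lie between 35.3 and 47.0 FPKM.

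In some families a single gene held most of the transcript, in others the leading genes were near equal. Map2k1 made up 85.7 ± 2.86% of the ERK MAP2K transcripts in cocaine libraries and 84.4 ± 3.78% in saline libraries (SD, n = 6 each). Hras, a Ras GTPase, made up 83.2 ± 3.97% of the sum with Nras in cocaine libraries and 82.1 ± 3.61% in saline libraries. Araf made up 76.3 ± 2.72% of the sum with Braf in cocaine libraries and 75.9 ± 4.11% in saline libraries. Among the JNK genes Mapk10, which encodes the mainly neural JNK3, took 43.2 ± 1.21% in cocaine libraries and 44.2 ± 1.05% in saline libraries. Mapk9, which encodes JNK2, took 41.3 ± 1.24% in cocaine libraries and 40.8 ± 2.00% in saline libraries, so these 2 were near equal and Mapk8 (JNK1) was the minor one. Among the p38 genes Mapk14 (p38 alpha) took 53.5 ± 8.49% in cocaine libraries and 51.2 ± 7.28% in saline libraries. Mapk11 (p38 beta) took 43.2 ± 8.0% in cocaine libraries and 45.1 ± 6.27% in saline libraries, and Mapk12 (p38 gamma) 3.30 ± 0.664% in cocaine libraries and 3.64 ± 1.08% in saline libraries. The shares of Mapk14 and Mapk11 varied more between libraries than those of the JNK genes. Among the mixed-lineage and leucine-zipper MAP3Ks, Map3k10 took 66.3 ± 1.91% in cocaine libraries and 66.2 ± 2.13% in saline libraries.

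Ordered by mean level, the MAP kinases ran Mapk3, Mapk10, Mapk9, Mapk14, Mapk11, Mapk8, Mapk4, Mapk6, Mapk7 and Mapk12. Mapk3 exceeded Mapk10 in all 12 libraries, and Mapk9 exceeded Mapk14 in all 12. The neighbours Mapk10 and Mapk9 kept their order in 10 of 12 libraries, and Mapk14 and Mapk11 in 8 of 12, so Mapk14 and Mapk11 did not differ beyond the spread of the libraries. Mapk8 exceeded Mapk4, which encodes the atypical ERK4, in 9 of 12 libraries.

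The adolescent exposure was then compared gene by gene, with limma on log2(value + 1) over all 13016 genes. None of the 39 tested members was called at an adjusted p under 0.05, in a comparison where 0% of all genes were called, and 0 members had an unadjusted p under 0.05, where 1.14% of all genes did. In 0 members did the groups fail to overlap, against 0.0768% of all genes. Of the members 21 were higher and 18 lower in cocaine libraries, with a median difference of 0.01 on the log2 scale, the same as the 0.01 over all genes tested. The limma adjusted p was 1.00 for each member tested. In the authors' deposited table the adjusted p was 1.00 for each of the 41. Member differences ran from -0.13 to 0.25 (log2). By DESeq2 on the recovered reads 3 genes were called, none of them a member, and by edgeR 0.

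In the ERK arm 6 genes were higher and 7 lower, with a median of -0.00 (log2). Mapk3 (ENSMUSG00000063065, plus strand of chromosome 7, 126759601 to 126765819, GRCm38) stood at 85.7, 99.5 and 118 FPKM (lowest, median and highest) in cocaine libraries and at 82.5, 100.2 and 109 FPKM in saline libraries. The ranges overlapped, with 2 cocaine libraries above every saline one. Its difference was 0.06 ± 0.08 (log2, SE), with a 95% interval from -0.12 to 0.24. The 2 other members with the smallest p were both ribosomal S6 kinases, which ERK activates. Rps6ka1 stood at 2.74, 3.33 and 4.14 FPKM in cocaine libraries and at 3.10, 3.71 and 4.53 FPKM in saline libraries, a difference of -0.13 ± 0.11 (log2, SE; exact permutation p = 0.260). Rps6ka3 stood at 6.68, 7.21 and 8.5 FPKM in cocaine libraries and at 5.82, 6.99 and 7.81 FPKM in saline libraries, a difference of 0.10 ± 0.10 (exact permutation p = 0.333). Groups overlapped in both genes, and the differences had opposite signs. Upstream, Map2k1 differed by 0.08 ± 0.11 (95% interval -0.15 to 0.31) and Hras by 0.07 ± 0.12 (95% interval -0.19 to 0.34). Sos1, the exchange factor that loads Ras with GTP, differed by -0.00 ± 0.15, and Braf by 0.01 ± 0.11. The scaffold genes Ksr1 and Ksr2, whose products hold Raf, MEK and ERK together, differed by -0.08 ± 0.09 and -0.10 ± 0.22.

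In the JNK arm 6 of the 10 tested genes were higher and 4 lower, with a median of 0.00 (log2). Mapk8 stood at 11.9, 12.6 and 14.8 FPKM (lowest, median and highest) in cocaine libraries and at 11.2, 11.5 and 13.8 FPKM in saline libraries, a difference of 0.08 ± 0.09 (log2, SE). Mapk9 stood at 30.1, 35.6 and 37.8 FPKM in cocaine libraries and at 24.8, 33.9 and 40.6 FPKM in saline libraries, a difference of 0.05 ± 0.13. Mapk10 stood at 32.7, 36.0 and 39.4 FPKM in cocaine libraries and at 30.3, 35.1 and 41.9 FPKM in saline libraries, a difference of 0.00 ± 0.10. In Mapk9 and Mapk10 both the lowest and the highest library were saline ones. The 95% interval was -0.11 to 0.28 for Mapk8, -0.23 to 0.33 for Mapk9 and -0.22 to 0.22 for Mapk10. The others with the smallest p were Map3k12 and Map3k13, which encode the leucine-zipper kinases DLK and LZK of the axon injury response. Map3k12 stood at 9.16, 10.6 and 12.3 FPKM in cocaine libraries and at 7.59, 10.5 and 12.5 FPKM in saline libraries, a difference of 0.06 ± 0.14. Map3k13 stood at 2.03, 2.67 and 4.13 FPKM in cocaine libraries and at 1.83, 2.92 and 4.11 FPKM in saline libraries, a difference of -0.09 ± 0.24. The saline range of Map3k12 encloses the cocaine one, and that of Map3k13 all but its highest library. The narrowest interval of the arm was that of Map2k4, at -0.02 ± 0.07 (95% interval -0.18 to 0.14), and the widest that of Map3k9, at -0.13 ± 0.45 (95% interval -1.10 to 0.84).

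In the p38 arm 4 of the 6 tested genes were higher and 2 lower, with a median of 0.10 (log2). This median rested on 1 library: without saline 5, the library with choroid plexus transcripts, it was 0.02, and the part of that tissue in the result was not tested. Mapk14 stood at 19.3, 23.2 and 25.5 FPKM (lowest, median and highest) in cocaine libraries and at 14.5, 22.3 and 25.2 FPKM in saline libraries. Saline 5 was the lowest, and the other 11 libraries lay between 19.3 and 25.5 FPKM. The difference of Mapk14 was 0.07 ± 0.14 (log2, SE) with saline 5 and -0.05 without it. Mapk11 stood at 14.6, 16.7 and 24.8 FPKM in cocaine libraries and at 16.6, 18.4 and 23.5 FPKM in saline libraries, a difference of -0.06 ± 0.14. Mapk12 stood at 1.00, 1.43 and 1.97 FPKM in cocaine libraries and at 1.07, 1.51 and 2.24 FPKM in saline libraries, a difference of -0.10 ± 0.19.

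The members of all arms with the smallest p were a MAP2K and a downstream kinase of the p38 arm. Map2k3 (ENSMUSG00000018932, plus strand of chromosome 11, 60932033 to 60952811, GRCm38) encodes MKK3, which phosphorylates p38. It stood at 4.08, 4.85 and 6.41 FPKM in cocaine libraries and at 2.99, 4.35 and 6.05 FPKM in saline libraries. Its difference was 0.25 ± 0.15 (95% interval -0.07 to 0.56, limma unadjusted p = 0.113, exact permutation p = 0.136). Mapkapk2 (ENSMUSG00000016528, minus strand of chromosome 1, 131053700 to 131097826, GRCm38) encodes MK2, the kinase through which p38 stabilises cytokine messenger RNAs. It stood at 13.4, 14.6 and 15.4 FPKM in cocaine libraries and at 11.4, 13.5 and 14.5 FPKM in saline libraries. Its difference was 0.13 ± 0.08 (95% interval -0.04 to 0.31, limma unadjusted p = 0.124, exact permutation p = 0.0758). In both genes the highest library was a cocaine one and the lowest a saline one, but the groups overlapped. For Map2k3 the library that overlapped most was saline 5, at 6.05 FPKM, and without it the difference was 0.34 and the unadjusted limma p fell under 0.05. In that fit 1.56% of all genes stood under this threshold, and Map2k3 was the only member to do so. For Mapkapk2 the lowest library was that same saline 5, and without it the difference was 0.08. Map2k6 (MKK6, the other p38 kinase) differed by 0.23 ± 0.17 (95% interval -0.13 to 0.60). The arms were not shown to differ from each other, since no test between arms was run.

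**Figure D3:**
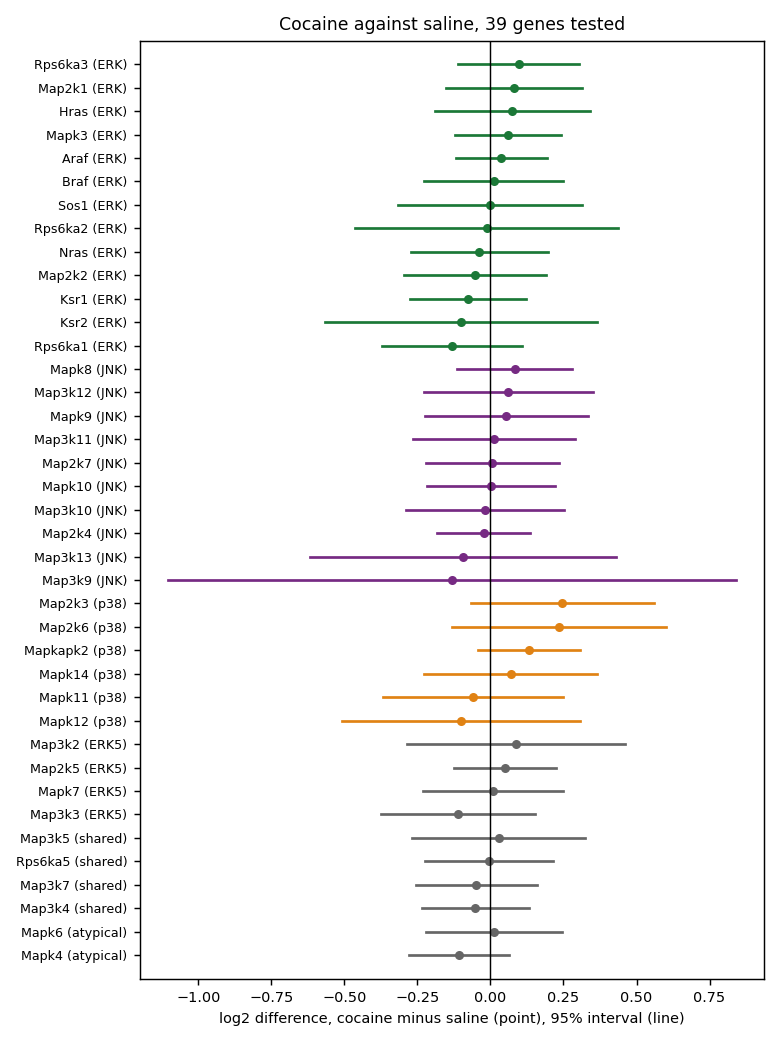
Difference of the 39 tested genes, cocaine minus saline, on the log2(value + 1) scale, coloured by arm, with 95% intervals as lines. All 39 intervals cross 0, and the widest is that of Map3k9, from -1.10 to 0.84.

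Outside these arms the differences were as small. In the ERK5 arm 3 genes were higher and 1 lower, with Map3k3, a MAP3K, at -0.11 ± 0.12 (log2, SE) and Mapk7, which encodes ERK5 itself, at 0.01 ± 0.11. Of the 4 shared kinases 1 was higher and 3 lower, among them the stress-responsive MAP3Ks Map3k5 (ASK1) at 0.03 ± 0.14 and Map3k7 (TAK1) at -0.05 ± 0.10, and Rps6ka5 (MSK1, a kinase of CREB and histone H3 downstream of ERK and p38) at -0.01 ± 0.10. The atypical MAP kinase gene Mapk4 differed by -0.11 ± 0.08 (exact permutation p = 0.128) and Mapk6, which encodes ERK3, by 0.01 ± 0.11.

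Genes that act on or around the cascade were counted in the same fit. Of 10 genes for MAPK scaffolds and docking partners 2 were higher and 8 lower in cocaine libraries, with a median of -0.03 (log2) and 0 called. Ptpn5, the striatal-enriched phosphatase of ERK and p38, differed by -0.10 ± 0.07 (log2, SE), and Lamtor3, an endosomal scaffold for MEK and ERK, by 0.10 ± 0.08. Of 15 Ras activators and adaptors 7 were higher and 8 lower, with a median of -0.01, 0 called, Gab2 at -0.17 ± 0.11 and Ptpn11 at -0.15 ± 0.13. Of 8 tested Ras inactivators 2 were higher and 6 lower, with a median of -0.02 and 0 called. Rasa3 differed by -0.12 ± 0.09 and Rasa1 by 0.12 ± 0.12. Of 11 kinases listed above the MAP3Ks, mostly MAP4K and PAK kinases, 4 were higher and 7 lower, with a median of -0.03 and 0 called. Map4k4 differed by -0.25 ± 0.18 and Map4k2 by -0.11 ± 0.10. Of 12 transcription factors targeted by MAP kinases or by kinases that these activate, 7 were higher and 5 lower, with a median of 0.01 and 0 called. Etv1 differed by 0.12 ± 0.11 and Creb1 by 0.09 ± 0.09. None of these 5 lists had a gene at an unadjusted p under 0.05.

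The rapid immediate-early genes, which ERK signalling is known to induce, had another profile in the same libraries. Of 22 tested 20 were higher and 2 lower, with a median of 0.24 (log2), 9 at an unadjusted p under 0.05 and 0 called. Nr4a1 differed by 0.53 ± 0.10 and Arc by 0.97 ± 0.20 (log2, SE). The kinases above them stood at a median of 0.01. The list was taken up because earlier results of these data showed it, and is no independent evidence of a direction.

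Most members also varied between libraries in a pattern that ran through both groups. The first principal component of the 12977 tested genes that are not cascade members held 43.3% of their variance. Cocaine libraries lay from -0.98 to 1.14 on it and saline libraries from -1.69 to 1.39, in units of its SD. Saline 4, saline 3 and cocaine 2 lay at the positive end and saline 5, saline 6 and cocaine 1 at the negative end. The axis and its sign are arbitrary, positive meaning that longer genes were higher. The labels give each library a time tag, day 0 for odd and day 5 for even replicate numbers, which has no place in the treatment schedule. Of the 6 libraries tagged day 0, 5 lay below 0 on the axis (median -0.58), and of the 6 tagged day 5, 5 lay above 0 (median 0.58). The axis was examined after seeing the data, and a slope on it describes how genes varied together, not a condition of the study.

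Of the 39 tested members 28 followed this axis, 21 with a positive slope and 7 with a negative one (limma with group as a covariate, adjusted p under 0.05). Among all genes tested 27.3% had a positive slope and 24.1% a negative one, 51.4% in either direction. All genes but the members also formed the component, so their share is partly fixed in advance and is no like background for the members. Adjusted p-values of the members depend on that share too, since the adjustment ran over all genes tested. With libraries scaled to equal totals 17 members were positive and 9 negative, beside 2889 and 4007 of all genes, against 3552 and 3142 with the deposited scaling. None of the 28 members changed the sign of its slope with either other scaling, and 24 were called again with equal totals. In each of the 28 the slope had the same sign in cocaine libraries as in saline libraries, and in libraries tagged day 0 as in those tagged day 5. With the time tag as a covariate 26 of the 28 were called again, Map3k10 and Mapkapk2 being the exceptions, so the members followed the axis within a tag as well. Without saline 5 and saline 4, the libraries farthest out, 21 of the 28 were called again and all 28 kept their sign.

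By arm, the ERK genes were divided, with 7 positive, 4 negative and 2 not called. The JNK genes were 7 positive, 1 negative and 2 not called, with all 3 JNK kinases positive. Mapk9 had a slope of 0.22 ± 0.03, Mapk10 of 0.15 ± 0.03 and Mapk8 of 0.11 ± 0.03 (log2 per SD of the component, SE). The p38 genes were 3 positive, 2 negative and 1 not called. The largest slopes were those of Map3k9 (0.83 ± 0.08, limma adjusted p = 1.78e-06) and Map3k13 (0.45 ± 0.04, limma adjusted p = 8.92e-07), followed by Ksr2 (0.38 ± 0.05), Rps6ka2 (0.37 ± 0.04) and Map3k2 (0.30 ± 0.04).

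Map3k9 (ENSMUSG00000042724, minus strand of chromosome 12, 81721010 to 81781175, GRCm38), which encodes the mixed-lineage kinase MLK1, was the most variable cascade gene and is singled out here after its values were seen. It stood at 2.08, 3.48 and 7.78 FPKM (lowest, median and highest) in cocaine libraries and at 1.36, 4.05 and 9.74 FPKM in saline libraries. The highest library, saline 4, was 7.17 times the lowest, saline 5, and cocaine 2 was the highest of its group. The SD of Map3k9 within groups was above that of 98.2% of the genes tested.

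**Figure D4:**
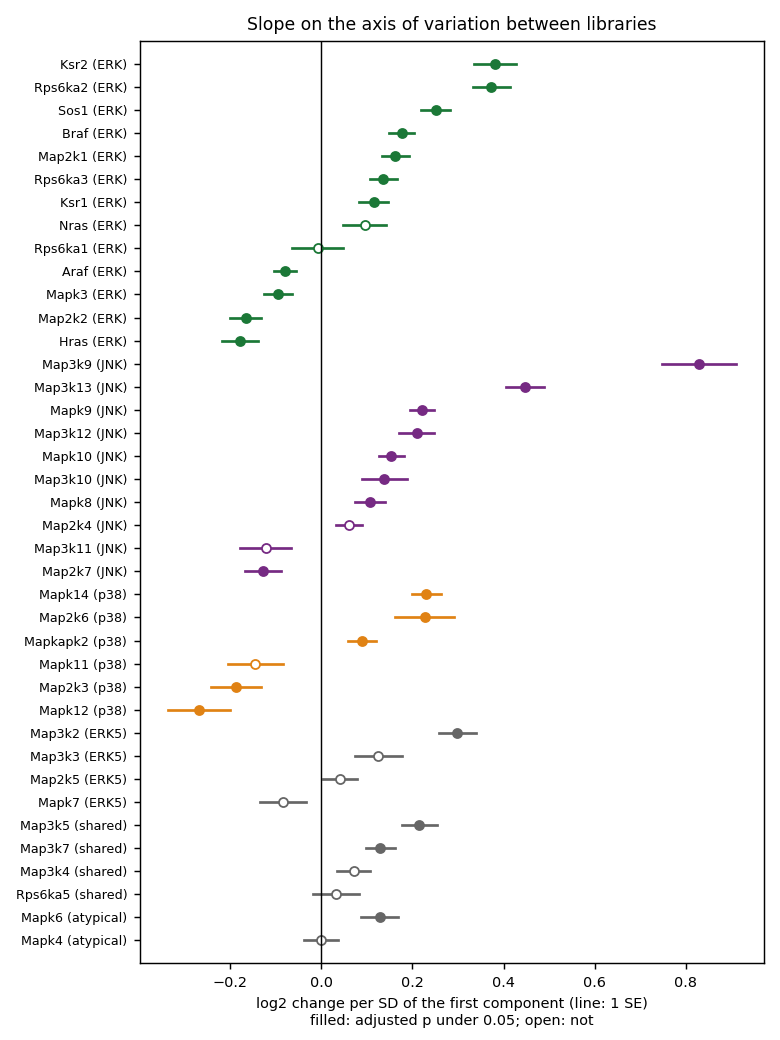
Slope of the 39 tested genes on the first component of the other genes (log2 per SD, lines 1 SE), coloured by arm, filled where the adjusted p is under 0.05. Map3k9 lies farthest to the right at 0.83, the 3 JNK kinases lie right of 0, and Mapk12, Map2k3, Hras and Map2k2 lie farthest to the left.

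In 4 families paralogs with the same step in the cascade followed the axis in opposite directions. Map2k1 had a slope of 0.16 ± 0.03 and Map2k2, which encodes MEK2, of -0.17 ± 0.03 (log2 per SD, SE). Braf had a slope of 0.18 ± 0.03 and Araf of -0.08 ± 0.02. Map2k6 had a slope of 0.23 ± 0.06 and Map2k3 of -0.19 ± 0.05, and Mapk14 of 0.23 ± 0.03 and Mapk12 of -0.27 ± 0.07. The limma adjusted p of these 8 slopes lay between 4.80e-05 and 0.0131. Without saline 5 and saline 4 both genes of the pairs Map2k1 with Map2k2 and Mapk14 with Mapk12 were called again, while Araf (limma adjusted p = 0.151) and Map2k3 (limma adjusted p = 0.266) were not. The shares within these families varied between libraries of the same group. Among cocaine libraries Map2k1 took from 82.0 to 89.0% of the ERK MAP2K sum and Mapk14 from 42.5 to 61.9% of the p38 sum, and among saline libraries Map2k1 took from 79.5 to 88.3% and Mapk14 from 41 to 58.7%. Hras, with a slope of -0.18 ± 0.04, and Mapk3, at -0.09 ± 0.03, were lower where the JNK kinases were higher.

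**Figure D5:**
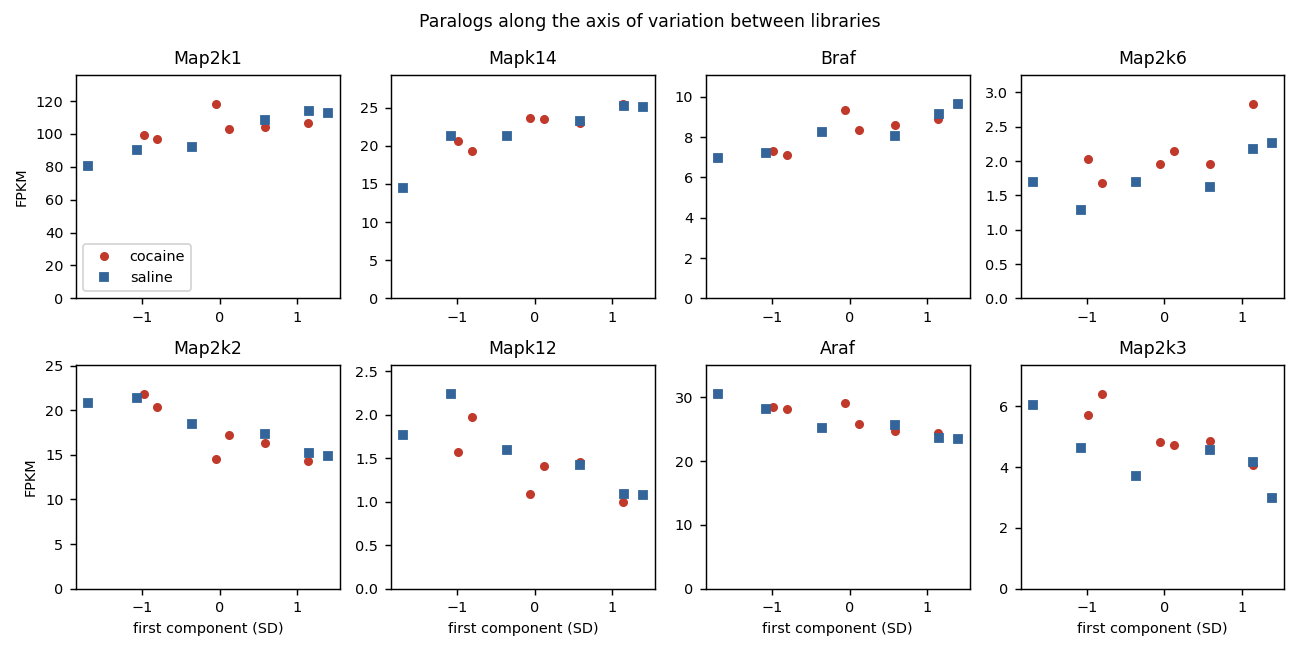
FPKM of 4 pairs of paralogs in each library against the first component (in SD), the positive member above and the negative one beneath, cocaine circles and saline squares, each axis starting at 0. Map2k1, Mapk14, Braf and Map2k6 rise and Map2k2, Mapk12, Araf and Map2k3 fall along the axis, and the groups are intermingled.

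The members that followed the axis differed in length and base composition, as did genes in general. The 21 positive members had a median length of 7103 bases and the 7 negative ones of 3805 bases. Among all genes tested the medians were 6697 bases for positive and 2471.5 bases for negative genes. The direction of the length trend over all genes follows from the sign of the axis, which was set so that longer genes were higher. GC content was taken from the longest annotated transcript of each gene, whereas the lengths are the deposited gene lengths, which can exceed that transcript. It was 48.3% at the median of the positive members and 56.0% of the negative ones, and 48.3% and 51.7% among all genes of those directions. Across the 39 members Spearman's rho was 0.53 between slope and length and -0.41 between slope and GC content, and across all genes tested with a known sequence 0.52 and -0.16. Genes share libraries and are not independent replicates, so these are descriptions. Single members went against these trends. Map3k10 (64.9% GC), Map3k9 (58.8%), Mapkapk2 (57.6%) and Ksr1 (57.3%) were positive with a GC content above the median of the negative members. Mapkapk2, Map2k1 and Map2k6 were positive with lengths of 3041, 3391 and 3444 bases, and Araf was negative with 6541 bases and 45.4% GC.

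Marker and pathway lists were counted along the axis as well, to be read against the 51.4% of all genes called. The 4 red blood cell genes were all negative, 4 of 5 endothelial markers were positive and 1 negative, and 3 of 8 excitatory neuron markers were positive. Of 6 interneuron markers 1 was positive and 2, Pvalb and Sst, were negative. Of 6 astrocyte markers 2 were positive, of 6 microglia markers 1 was negative and of 12 oligodendrocyte markers 1 was negative. The median slope of the oligodendrocyte markers was nonetheless -0.43, beside -0.42 for the red blood cell genes (log2 per SD). Saline 5, the library with choroid plexus transcripts, was lowest on the axis and also had the second highest mitochondrial share. Their part in the slopes was not tested. Among the other genes of the pathway there were 9 positive and 2 negative of 15 Ras activators and adaptors, and 6 and 0 of 8 Ras inactivators. There were 5 and 1 of 10 scaffolds, 7 and 1 of 12 transcription factors, and 6 and 1 of the 11 kinases listed above the MAP3Ks. The immediate-early genes were 5 positive and 6 negative of 22.

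Slopes on other scores were weak. On the score of the 12 myelinating oligodendrocyte markers, which ran from -1.04 to 0.96 in cocaine libraries and from -1.51 to 1.23 in saline libraries (mean log2 deviation), 0 members were called, whereas 3.01% of all genes were called positive and 0.185% negative, 3.2% in either direction. At an unadjusted p under 0.05 there were 6 members, all with negative slopes: Map3k9, Ksr2, Rps6ka2, Map3k5, Map2k1 and Mapk10. That count is near the share of all genes, 15.2%. All 6 were also called on the first component, with positive slopes, so their slopes on the oligodendrocyte score are not a separate result. In saline libraries alone all 6 varied against the score, but in cocaine libraries 5 of the 6 varied with it, Map3k5 being the exception. Without cocaine 1 a single member of 39, Rps6ka2, was called, beside 703 of the 13004 genes tested. On the score of the immediate-early genes 0 members were called, as were 0% of all genes. At an unadjusted p under 0.05 stood Map3k2, with a negative slope, and Mapk7, with a positive one, beside 5.78% of all genes. A slope that misses the threshold with 6 libraries per group does not show that these transcripts are unrelated.

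Some counts are limited by shared sequence. Of the exon bases of Map2k7, 35.2% lie in exons of Gm49320 on the same strand, and of those of Map3k12 and Map3k10 19.3% and 14.8% lie in exons of other genes. Between paralogs the longest identical run was 56 bases, in Map2k1 and Map2k2, and 38 bases in Ksr1 and Ksr2 and in Rps6ka1 and Rps6ka3. The strand setting of the read counter and its treatment of reads with several matches are not stated in the labels or files, so the split of reads in these stretches is uncertain.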

How the data were processed

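Total RNA (1 µg per library) went into Illumina TruSeq libraries after Trizol extraction, per the labels' protocols. The submitters' processing notes name HISAT2 2.0.5 and the build hg38, although the gene IDs are mouse: 28825 of 28842 were found in GENCODE M21 (GRCm38). The counter is not given in the sources used here. The authors deposited 1 table whose columns, per the file headers, are values by gene and library, group means, gene length (another kind of column), log2 fold change, p-value and adjusted p. Its values are a signal: the authors divided read counts by a size factor, since 100% of values in each library were whole reads (tolerance 0.01). Count tests on those reads called 0 genes (edgeR 4.0.16) and 3 (DESeq2 1.42.0).

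The test was limma 3.58.1 in R 4.3.3 with a variance trend, two-sided, on log2(value + 1), which understates the change of low genes. Genes needed a mean of at least 1 FPKM, computed from value, length and column sum, and p-values were adjusted by Benjamini-Hochberg over all genes tested (threshold 0.05). Slopes had group as a covariate, and the fits were tested on simulated data. Values per library are given for the ERK, JNK and p38 MAP kinases and the 2 other members of each arm with the smallest p, and 2 genes are named from each pathway list. Members, lists and tests were chosen with earlier results of these data known. For 25 genes a name turned into a date was restored through the ID. Alternatives covered pseudocount, filter, scaling, variance model, weights, covariates, replicate block and each library left out.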

Additional observations from a re-analysis of the deposited data

Results flagged for a closer look

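In 4 of 88 groups of 6 libraries 1 library lay far from the rest of its group, where chance flags about 1 in 20 such groups. Map2k6, a kinase of p38, stood at 178 normalised reads in cocaine 2, and the next library of that group at 128. Map3k11, a mixed-lineage kinase, stood at 387 normalised reads in cocaine 3, the next at 540. Map3k1, which was too low for the test, stood at 56.6 normalised reads in cocaine 1, the next at 102. Map2k5, the kinase of ERK5, stood at 490 normalised reads in saline 5, the next at 547.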

How the results depend on the processing

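Over 26 alternative settings 0 members were called between cocaine and saline, and the smallest adjusted p of a member was 0.998. Genes called stayed at 0 except with DESeq2 (3). The count of members at an unadjusted p under 0.05 ran from 0 to 1 when a library was left out. The 1 was Map2k3, without saline 5, where 1.56% of all genes stood at that p. The count was 2 (Map2k3 and Mapkapk2) with the first component as a covariate, where 3.23% of all genes stood at that p. That covariate, the time tag in the slopes, the slopes on the first component and the rescaled slopes were chosen after seeing the data. The p38 median ran from 0.015 (without saline 5) to 0.14 (without saline 4), the ERK median from -0.04 to 0.03 and the JNK median from -0.04 to 0.04. The sign of the difference changed in 3 to 10 members when a library was left out and in 0 to 6 under the other settings, none of them called.

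Replicate numbers did not pair the libraries: the deviations of same-numbered libraries correlated from -0.40 to 0.43, over 0.1 in 2 of 6 pairs, and 0 of 6 cocaine libraries correlated best with its own number. With the replicate block 0 genes were called between groups. The block cut the slopes on the first component to 1954 genes and 9 members, all positive, against 6694 and 28, so that none of the 8 paralog slopes in opposite directions was called with it. With the time tag, which follows odd and even replicate numbers, there were 5940 genes and 28 members, 21 positive and 7 negative. Leaving out a library gave 5825 to 7291 genes and 24 to 32 members. On the oligodendrocyte score 416 genes were called, 203 without saline 4 and saline 1, and 281 to 703 with each library left out, the last without cocaine 1, with 0 to 1 members. The cause was not tested. At this depth 0 reads allow up to 3 per library (counting error alone), and the 2 members under 1 FPKM were not tested.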
